A study of Mus musculus with 17 samples.

Results

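A set of 9 ligand genes through which liver endothelial cells signal to their neighbours was followed in RNA from Kupffer cells (KCs) sorted from mouse liver, macrophages that live inside its sinusoids. The members were the 9 rows of each table with the symbols Wnt2, Wnt9b, Rspo3, Bmp2, Bmp6, Dll4, Jag1, Kitl and Hgf, of 25124 genes listed. The study compared 17 samples. Tim4+CD206+ KCs (TIM4+CD206+ below) gave 3 tumour-free and 3 tumour-bearing samples, and Tim4+CD206hi KCs (TIM4+CD206hi) also 3 and 3. The labels do not say whether replicates, or both subsets, came from the same livers. The tumour-bearing mice had received pancreatic carcinoma cells of a KPC line into the portal vein 2 weeks earlier, and the tumour-free mice were untreated. The remaining samples were 3 of KCs of untreated Id3f/f mice, in which the Id3 gene is floxed but intact, and 2 of KCs of untreated Clec4fCreId3f/f mice, in which a Cre driven by the KC gene Clec4f deletes it in KCs. The labels do not split these last samples by CD206, and they give no age. Cells were sorted as CD45+F4/80+TIM4+ after exclusion of lymphocytes and neutrophils, without an endothelial marker among the excluded ones.

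Endothelial cells of the sinusoids and central veins release soluble or membrane-bound signals, called angiocrine factors, that organise the hepatocytes and macrophages around them. Wnt2 and Wnt9b are Wnt ligands that maintain the gene programme of hepatocytes near the central vein, and Rspo3 encodes an R-spondin that raises Wnt signalling by removing ubiquitin ligases from the cell surface. Bmp2 and Bmp6 encode bone morphogenetic proteins that control hepcidin, the iron hormone of hepatocytes. Dll4 and Jag1 encode membrane-bound Notch ligands, Kitl the ligand of the receptor KIT, and Hgf the hepatocyte growth factor, whose receptor is MET. Hgf is also a product of hepatic stellate cells, the pericytes of the sinusoid.

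The genes lie apart in the GRCm38 genome. Wnt2 is at chr6:17988940-18030585 on the minus strand, Wnt9b at chr11:103727364-103749821 (minus), Rspo3 at chr10:29452416-29535867 (minus), Kitl at chr10:100015630-100100416 (plus) and Hgf at chr5:16553495-16620152 (plus). Bmp2 (chr2:133552159-133562885, plus), Dll4 (chr2:119325784-119335962, plus) and Jag1 (chr2:137081456-137116644, minus) share chromosome 2, and Bmp6 is at chr13:38345107-38500302 (plus). Dll4 overlaps the listed gene Gm14207, and Bmp6 overlaps Txndc5 and 4930579J19Rik. These are overlaps of whole gene spans, and whether exons overlap was not checked. The libraries did not mark strand, so reads from any shared exon bases cannot be told apart.

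The ID3 protein, whose gene is deleted in 1 of the comparisons, blocks E proteins, which bind the E-box CANNTG. RefSeq windows upstream of the transcription start (GRCm38.p6) were matched for 7 of the 9 genes, Bmp2 and Rspo3 being the others. The stretches outside the annotated gene are shown for Wnt2, Wnt9b, Dll4 and Hgf, with E-boxes in capitals. The motif reads the same on both strands.
Wnt9b, chr11:103749822-103750071, minus strand: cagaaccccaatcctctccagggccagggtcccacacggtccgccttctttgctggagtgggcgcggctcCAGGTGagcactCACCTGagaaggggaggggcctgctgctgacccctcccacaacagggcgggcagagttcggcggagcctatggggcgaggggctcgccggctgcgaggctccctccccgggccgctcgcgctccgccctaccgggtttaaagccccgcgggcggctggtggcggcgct
Hgf, chr5:16553245-16553494, plus strand: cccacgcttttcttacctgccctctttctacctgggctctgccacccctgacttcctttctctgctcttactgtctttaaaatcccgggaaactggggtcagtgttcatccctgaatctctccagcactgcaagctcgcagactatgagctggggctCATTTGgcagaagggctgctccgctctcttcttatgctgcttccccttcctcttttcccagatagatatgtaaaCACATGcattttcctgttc
Dll4, chr2:119325534-119325783, plus strand: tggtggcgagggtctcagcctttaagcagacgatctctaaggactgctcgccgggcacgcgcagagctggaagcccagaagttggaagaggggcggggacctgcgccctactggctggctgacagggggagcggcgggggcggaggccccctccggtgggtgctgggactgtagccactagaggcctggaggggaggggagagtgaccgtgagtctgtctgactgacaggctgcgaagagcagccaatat
Wnt2, chr6:18030586-18030695, minus strand: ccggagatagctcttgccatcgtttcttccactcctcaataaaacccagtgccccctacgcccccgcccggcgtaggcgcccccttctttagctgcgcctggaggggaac
Wnt9b and Hgf each held 2 E-boxes in 250 bases, and Dll4 held 0. Of all 32851 windows of that length, 66.2% held at least 1 match and 31.8% held 2 or more. The 110 bases shown for Wnt2 held 0 matches, where 39.0% of stretches of that length held the motif. Jag1 (126 bases) and Kitl (59 bases), not shown, also held 0, where 43.4% and 22.8% of stretches of those lengths held it.

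Each of the 3 tables was normalized separately by the authors, and its values are on a log2 scale. The sums of the values on the linear scale in a sample, in units of 1000000, were 21.8 to 39.7, which are normalized totals and not depths. Clec4f, Cd5l, C1qb and the other Kupffer cell genes of a 15-gene list were at a median percentile of 99.6 or higher in every sample. Their summed share of the linear signal differed, at 6.29 to 10.0% in TIM4+CD206+ and 4.01 to 5.54% in TIM4+CD206hi samples. In the Id3 samples it was 7.08 to 7.15%. Other cells were represented too. The 29 measured genes of an endothelial list (Stab2, Clec4g, Kdr, Gpr182 and others) summed to 0.0439 to 0.106% of the linear signal in TIM4+CD206+ samples, 0.0899 to 0.114% in the Id3 samples and 0.627 to 1.50% in TIM4+CD206hi samples. In bulk samples, fewer cells of a type and less RNA per cell cannot be told apart. The 3 TIM4+CD206hi tumour-free libraries were the least alike, with correlations across genes of 0.937 to 0.972, beside 0.993 to 0.994 in TIM4+CD206hi tumour-bearing libraries.

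All 9 angiocrine genes ranked higher in TIM4+CD206hi than in TIM4+CD206+ KCs. Because values cannot be compared between tables, each gene was given its percentile among 16038 genes within its own sample, where 100 is the most abundant gene. In tumour-free livers, every TIM4+CD206hi sample lay above every TIM4+CD206+ sample for 9 of 9 members, a pattern that 28.7% of all ranked genes showed. In tumour-bearing livers the count was again 9 of 9, beside 36.1% of all genes. The median difference was 26.1 percentile points without tumour and 27.4 with tumour. No test was made between tables. The endothelial list moved the same way, with 26 of 28 ranked genes above without tumour and 28 of 28 with tumour, and a median difference of 37.7 and 41.6 points. All 4 ranked sex-linked genes, which are Y-linked, also lay above in both conditions, with median differences of 31.3 and 21.0 points. Xist, the other sex-linked gene of that list, had no reads in the TIM4+CD206+ samples. In all TIM4+CD206hi samples it was at log2 values of −1.99 to −1.98, near the lowest of any gene there. Sex is not in the labels. The part of the endothelial list and of the sex-linked genes in the ranks of the ligands was not tested.

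The Wnt2 gene had the highest rank of the Wnt and R-spondin ligands. In tumour-free TIM4+CD206+ KCs its percentiles were 70.7, 38.7 and 49.1, with replicate 1 well above the others, and in tumour-free TIM4+CD206hi KCs they were 95.6, 94.8 and 85.8. With tumour, the percentiles were 45.6, 43.2 and 45.9 in TIM4+CD206+ KCs and 74.2, 76.5 and 80.7 in TIM4+CD206hi KCs. Rspo3 lay at 18.2 ± 0.50 and 42.5 ± 6.6 (mean ± SD, n = 3 each) in the subsets without tumour. Wnt9b was at the bottom of the TIM4+CD206+ samples, at 5.33 to 5.63, with log2 values of −0.10 to −0.01 in all 6, and reached 19.3 to 30.0 in the TIM4+CD206hi samples.

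Bmp2 showed the largest difference of the 9 in either condition. It lay at 31.2 ± 3.6 in TIM4+CD206+ and 91.0 ± 6.1 in TIM4+CD206hi KCs without tumour (n = 3 each). With tumour, its TIM4+CD206+ percentiles were 25.3, 29.5 and 45.3, and its TIM4+CD206hi percentiles were 93.0, 93.3 and 96.2. Bmp6 was lower, at 18.7 and 44.8 on average without tumour and 19.3 and 34.8 with tumour.

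Of the Notch ligands, Dll4 ranked far above Jag1 in both subsets. Its tumour-free percentiles were 40.2, 25.6 and 43.4 in TIM4+CD206+ and 87.2, 84.6 and 72.5 in TIM4+CD206hi KCs. Jag1 stayed low in both, at 7.8 and 26.3 on average without tumour. Of the receptor tyrosine kinase ligands, Kitl averaged 37.1 and 61.0 and Hgf 40.2 and 69.4 without tumour, and Hgf averaged 43.0 and 77.1 with tumour. The order of subsets held in each single sample, as the plot of percentile ranks shows.

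**Figure D1:**
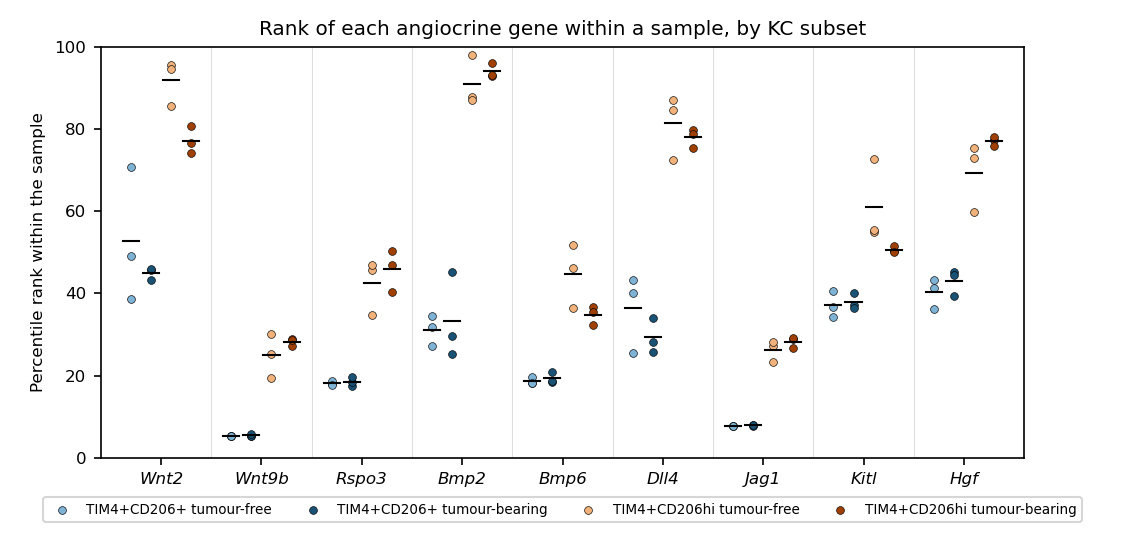
Percentile rank of each angiocrine gene within each sample (y axis, 0 to 100, among 16038 genes) for the 4 groups of KC subset samples. Points are samples (n = 3 per group) and bars are group means. For each of the 9 genes, the TIM4+CD206hi samples lie above the TIM4+CD206+ samples of the same condition, with Bmp2 at 31.2 and 91.0 on average in tumour-free livers.

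To set genes side by side, values were divided by exon length in kilobases and scaled to a sum of 1000000 per sample. On this scale, Wnt2 (99.6 to 304) and Bmp2 (70.2 to 301) were the most abundant ligands of tumour-free TIM4+CD206hi KCs, and their ranges overlapped. Dll4 followed at 26.9 to 74.3, overlapping Bmp2, and then Hgf (9.45 to 17.5), Kitl (8.90 to 17.6), Rspo3 (3.83 to 11.1) and Bmp6 (4.07 to 11.6), each overlapping the next. Wnt9b (0.446 to 2.06) and Jag1 (0.698 to 1.18) were lowest. With tumour, Bmp2 came first (130.2 to 218) and Wnt2 second (62.0 to 88.7), and no range of the 9 overlapped that of its neighbour in the order. In TIM4+CD206+ KCs, Wnt2 was also first, at 2.77 to 18.1 without and 3.73 to 4.57 with tumour, while Dll4, Hgf, Bmp2 and Kitl overlapped. In Id3f/f KCs the leading members were Wnt2 (14.4 to 22.7) and Bmp2 (12.8 to 15.2), which overlapped, followed by Rspo3 (2.38 to 2.43).

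Whether the ligands changed with liver tumours was then tested within each subset. A gene entered the test if 3 or more samples reached the value of 10 counts, and it was called at an adjusted p under 0.05 (limma, Benjamini-Hochberg over all genes tested). In TIM4+CD206+ KCs, 6 of the 9 members passed the filter, and Wnt9b, Rspo3 and Jag1 did not. None of the 6 was called by limma, beside 3.54% of 13233 genes (2.55% higher and 0.998% lower). The background rose from 469 to 1026 genes when replicate numbers entered as a block. At an unadjusted p under 0.05 there were 0 members, beside 17.2% of genes. The differences were positive for 4 and negative for 2, with a median of 0.18 beside 0.02 for all genes tested. Adjusted p-values ran from 0.557 to 0.887. The groups overlapped for all 6, while 23.4% of all tested genes did not overlap (10.5% lower and 12.9% higher).

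Wnt2 in TIM4+CD206+ KCs was at log2 values of 9.43, 6.41 and 7.41 without and 7.20, 6.94 and 7.26 with tumour, a difference of −0.61 (SE 0.66, limma adjusted p = 0.719). The tumour-bearing samples lay close together inside the tumour-free range, and without tumour-free replicate 1 the difference was 0.22. Dll4 was at 6.46, 4.52 and 6.85 and at 4.98, 4.61 and 5.88, a difference of −0.79 (SE 0.59, adjusted p = 0.575). It was −1.50 (adjusted p = 0.0593) without tumour-free replicate 2 and −0.33 without tumour-free replicate 3. Tumour-free replicate 2, low for Dll4 and Wnt2, also had the lowest endothelial list mean of its group, 6.98 beside 8.49 and 8.14.

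Bmp2 was at 5.40, 5.83 and 4.75 without and 4.49, 5.17 and 7.19 with tumour, and tumour-bearing replicate 3 was the highest of the 6. The difference was 0.29 (SE 0.63) with this library and −0.49 without it. Hgf was at 6.79, 6.73 and 5.98 and at 7.17, 6.52 and 7.10, a difference of 0.43 (SE 0.31, adjusted p = 0.557). Kitl differed by 0.22 and Bmp6 by 0.13. Rspo3, not tested, was at 3.11 to 3.57 in all 6 samples, and Jag1 at 0.77 to 0.83.

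In TIM4+CD206hi KCs, all 9 members passed the filter. Again 0 were called by limma, beside 7.23% of 14561 genes (5.21% higher and 2.03% lower). At an unadjusted p under 0.05 there was 1 member, Wnt2, beside 21.1% of genes. The groups did not overlap for 4 members, beside 30.7% of all genes tested. Wnt2 and Kitl were lower in every tumour-bearing sample (15.2% of genes) and Jag1 and Hgf higher (15.6%). Differences were positive for 5 and negative for 4, with a median of 0.27 beside 0.03 for all genes tested. Median centring shifted the differences by −0.16, and quantile normalization brought their median over all genes to −0.11. These scalings moved the share of higher genes among all calls from 72.0% to 64.5% and 56.2%.

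Wnt2 had the largest difference. Its log2 values were 12.92, 12.71 and 11.44 without and 10.62, 10.76 and 11.08 with tumour. All 3 tumour-bearing samples lay below all 3 tumour-free ones, and tumour-free replicate 3 was nearest to them. The difference was −1.54 (SE 0.38, 95% interval −2.45 to −0.63), with a limma adjusted p of 0.0608. The adjusted p was 0.0148 after median centring, 0.0340 after quantile normalization and 0.00224 without tumour-free replicate 3, where the difference was −2.0. Over all settings it ran from 0.00224 to 0.225.

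The other Wnt ligand and the R-spondin gene had differences in the opposite direction that did not pass the test. Wnt9b was at 5.84, 6.82 and 4.64 without and 6.48, 6.78 and 6.76 with tumour (difference 0.91, SE 0.51, adjusted p = 0.347). Tumour-free replicate 2 was above the tumour-bearing samples, and without it the difference was 1.43 with an adjusted p of 0.0321. Rspo3 was at 8.49, 8.69 and 7.19 and at 8.21, 9.04 and 8.76 (difference 0.54, SE 0.43, adjusted p = 0.487), and the difference was 0.079 without tumour-free replicate 3, its lowest sample, and 0.83 without tumour-free replicate 2.

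Bmp2 was at 11.70, 13.66 and 11.59 without and 12.35, 12.37 and 13.03 with tumour. Tumour-free replicate 2 was the highest and the other tumour-free samples the lowest of the 6, so that the difference was 0.27 (SE 0.55, adjusted p = 0.795) with it and 0.94 (adjusted p = 0.0318) without it. Without tumour-free replicate 1 or 3 it was −0.042 and −0.097. Bmp6 was at 7.49, 9.10 and 8.35 and at 7.26, 7.82 and 7.66 (difference −0.73, SE 0.41, adjusted p = 0.349), and without tumour-free replicate 1 or 2 the difference was −1.14 and −0.34. The same tumour-free replicate 2 was thus the highest for Bmp2, Bmp6 and Wnt9b.

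For the Notch ligands, Dll4 was at 11.66, 11.41 and 10.32 without and 10.70, 10.99 and 10.95 with tumour (difference −0.25, SE 0.34, adjusted p = 0.689). Without tumour-free replicate 3, which lay below the tumour-bearing samples, the difference was −0.65 with an adjusted p of 0.0497. Jag1 was at 5.53, 6.38 and 6.24 and at 6.73, 6.81 and 6.46 (difference 0.62, SE 0.28, adjusted p = 0.258). Kitl was at 9.22, 9.39 and 10.33 and at 9.02, 9.12 and 9.01 (difference −0.60, SE 0.30, adjusted p = 0.309), and its tumour-free replicate 3 was far above the rest, with a difference of −0.26 without it. Hgf was at 10.47, 9.68 and 10.56 and at 10.83, 10.87 and 10.74 (difference 0.57, SE 0.26, adjusted p = 0.255). The spread of the members was wider without tumour than with it. Their standard deviations were 0.46 to 1.16 in the tumour-free and 0.061 to 0.42 in the tumour-bearing group and were larger in the former for 9 of 9 members, as for 87.2% of all genes tested.

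**Figure D2:**
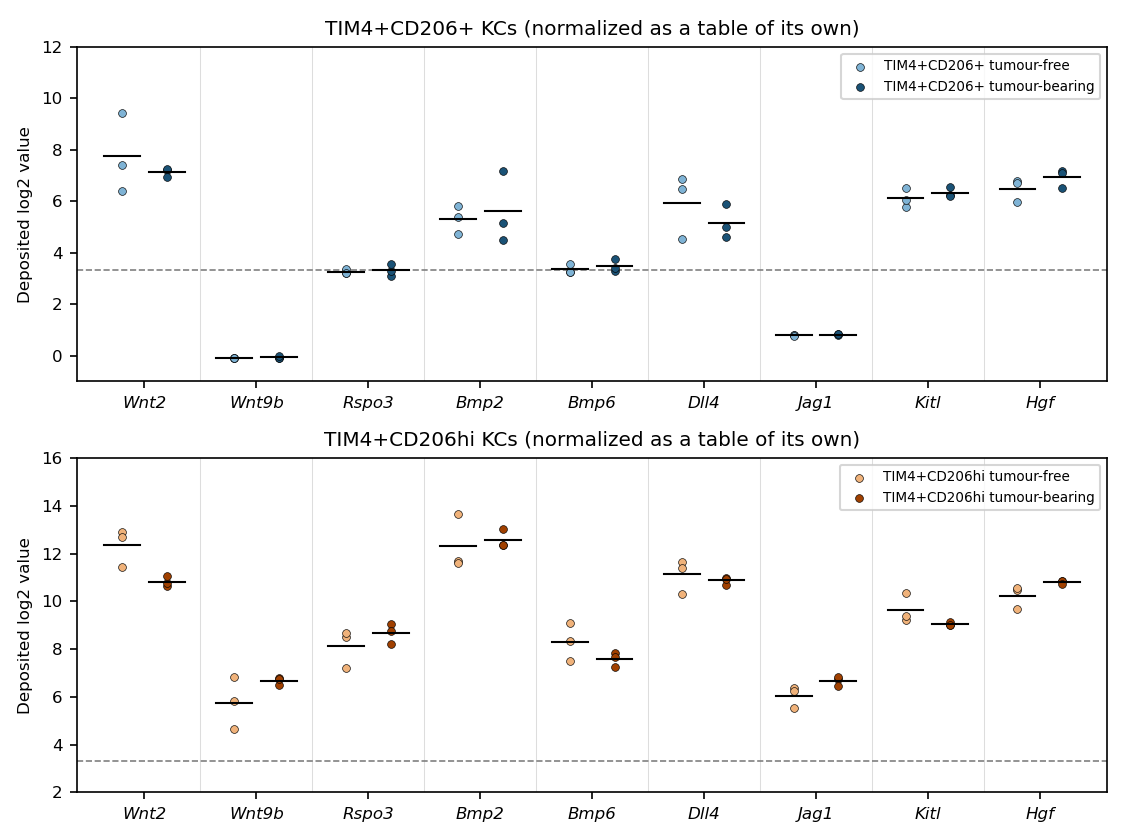
Deposited log2 values of the 9 angiocrine genes per sample in TIM4+CD206+ KCs (top) and TIM4+CD206hi KCs (bottom), without and with tumour. Points are samples (n = 3 per group), bars are means, and the dashed line is the log2 value of 10 counts used as a filter. In the lower panel Wnt2 lies at 11.44 to 12.92 without and 10.62 to 11.08 with tumour, and the 2 panels are on separate scales.

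Endothelial genes were also lower in these tumour-bearing samples. Of the 29 tested genes of the endothelial list, 7 fell in TIM4+CD206hi KCs and 0 rose, and 24 differences were negative. Those that fell were Tspan7 (−0.98), Mmrn2 (−1.11), the angiopoietin receptor gene Tek (−1.02), Dnase1l3 (difference −1.32, adjusted p = 0.0160), a secreted nuclease of sinusoidal endothelium, Oit3 (−1.25), and Clec4g (−0.90) and Gpr182 (−0.94), 2 of the most abundant genes of the list. The list's summed share was 0.968 to 1.50% without and 0.627 to 0.775% with tumour, and its mean log2 value was 0.52 lower, with no overlap. In TIM4+CD206+ KCs, 0 of 28 were called by limma (4 at an unadjusted p under 0.05), with a median difference of −0.62. The part of this shift in the members' values was not tested. Set against the mean of the endothelial list in the same sample, Wnt2 differed by −1.02 between tumour-bearing and tumour-free TIM4+CD206hi KCs, and Hgf by 1.09, Jag1 by 1.14, Rspo3 by 1.06 and Wnt9b by 1.42. The groups did not overlap for these 5, of which Wnt2 was lower (2.03% of all genes tested were, on this relative scale) and 4 were higher (44.7% of genes). Dll4 (0.26), Kitl (−0.08), Bmp6 (−0.22) and Bmp2 (0.78) overlapped on this relative scale.

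**Figure D3:**
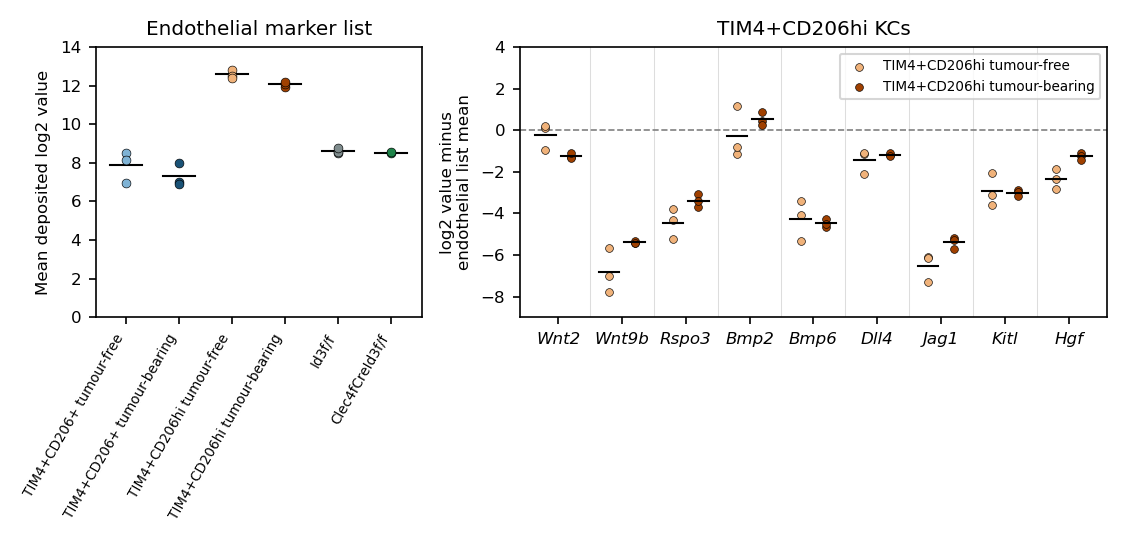
Left, mean deposited log2 value of the endothelial list (29 genes) per sample in the 6 groups, with each table on a scale of its own. Right, log2 value of each angiocrine gene minus that mean in the same TIM4+CD206hi sample, without and with tumour. Points are samples and bars are means, and relative to the list Wnt2 differs by −1.02 and Hgf by 1.09 between the conditions.

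Stellate cells, another source of Hgf, were followed by a list of their own. In TIM4+CD206hi KCs, 3 of 13 tested genes of the stellate list fell (Dcn, −1.67; Lrat, −1.76; Colec11, −1.82) and 0 rose, and the list's summed share was 0.0198 to 0.0659% without and 0.0315 to 0.0321% with tumour. In TIM4+CD206+ KCs 0 of 12 were called by limma (2 at an unadjusted p under 0.05), and the stellate gene Hhip had no reads.

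Among receptors and processing enzymes of these pathways, some genes rose with tumour. In TIM4+CD206hi KCs, 5 of 18 tested genes of Wnt and R-spondin reception and feedback rose and 0 fell. They were the R-spondin receptor Lgr4 (difference 1.58, SE 0.20, adjusted p = 0.00322), the Wnt receptor Fzd5 (1.11), the ubiquitin ligase Rnf43 (1.21), Ctnnb1, which encodes beta-catenin (1.21), and Porcn, whose product acylates Wnt ligands (1.73). Of the 12 genes for receptors and processing of HGF and KIT ligand, 4 rose and 0 fell. These were the HGF receptor Met (2.26, SE 0.49, adjusted p = 0.0369), the HGF activator Hgfac (0.93), the membrane protease St14 (2.69) and its inhibitor Spint1 (4.50). None of the 20 BMP and 20 Notch genes tested was called by limma (3 and 4 at an unadjusted p under 0.05). Over all genes tested, 5.21% were called higher and 2.03% lower, and 21.1% had an unadjusted p under 0.05. The medians of the Wnt, BMP, Notch and HGF and KIT lists were 0.25, 0.03, −0.14 and 0.97, beside 0.03 for all genes. Quantile normalization brought the medians of the Wnt and BMP lists to −0.03 and −0.18.

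In TIM4+CD206+ KCs, 2 of the 12 HGF and KIT genes rose, Plaur (1.47), the urokinase receptor, and Spint1 (3.64). None of the 16 Wnt, 18 BMP and 18 Notch genes was called by limma (2, 2 and 2 at an unadjusted p under 0.05). Over all genes tested there, 2.55% were called higher and 0.998% lower, and 17.2% had an unadjusted p under 0.05. Of 7 tested hepatocyte genes controlled by these ligands, Cyp2e1 (−1.82), Cyp1a2 (−2.03) and the glutamate transporter Slc1a2 (−1.64) fell, and in TIM4+CD206hi KCs Cyp2e1 (−1.74) and Cyp1a2 (−1.47) fell. Further secreted factors of endothelium were tested in the same way. In TIM4+CD206hi KCs 5 of 29 rose and 0 fell, namely the Wnt ligands Wnt4 (0.78), Wnt5a (1.36) and Wnt11 (0.91), the Notch ligand Jag2 (0.98) and the vasoconstrictor Edn1 (1.57), and in TIM4+CD206+ KCs 0 of 16 were called by limma (3 at an unadjusted p under 0.05).

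Markers of other cells moved with these genes. All 14 tested tumour epithelial genes rose in TIM4+CD206hi KCs and 13 of 14 rose in TIM4+CD206+ KCs, with Krt19 at 5.36 and 5.24 and Krt8 at 4.83 and 3.85. Their summed share went from 0.0061 to 0.0083% up to 0.183 to 0.193% in TIM4+CD206hi KCs. The 12 hepatocyte markers showed 6 lower and 1 higher (Hnf4a, named after its value was seen) in TIM4+CD206hi and 7 lower and 0 higher in TIM4+CD206+ KCs, and Alb fell by 2.06 and 2.29. Neutrophil markers rose for 5 of 10 in TIM4+CD206+ (median 1.90) and 4 of 10 in TIM4+CD206hi KCs (median 2.07), and monocyte markers for 3 of 10 in each (medians 1.17 and 0.61), with 0 lower. B cell markers fell for 4 of 5 and 2 of 6, and Kupffer cell markers for 3 of 15 and 0 of 15 (5 at an unadjusted p under 0.05 by limma), with 0 higher. Of the 15 Kupffer cell differences, 14 and 12 were negative (medians −0.44 and −0.30). The summed share of this list went from 8.25 to 10.0% down to 6.29 to 6.81% in TIM4+CD206+ KCs. In TIM4+CD206hi KCs it went from 4.53 to 5.54% down to 4.01 to 4.43%. None of the 9 T or NK cell markers was called by limma in either subset (3 and 6 at an unadjusted p under 0.05). All 9 differences were negative in both subsets, with medians of −0.52 and −0.71. The 4 tested sex-linked genes all had positive differences in TIM4+CD206+ KCs (median 0.90), with 0 called and 3 at an unadjusted p under 0.05 by limma. In TIM4+CD206hi KCs 1 was positive and 3 were negative (median −0.14). The part of these markers in the pathway genes and the ligands was not tested. Over all genes tested in TIM4+CD206+ KCs, 2.55% were called higher, 0.998% were called lower and 17.2% had an unadjusted limma p under 0.05. The same shares in TIM4+CD206hi KCs were 5.21%, 2.03% and 21.1%.

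Deletion of Id3 came with no called change of the ligands. The deleted gene was checked first. Id3 was at 12.58, 12.46 and 12.82 in Id3f/f and 9.83 and 9.82 in Clec4fCreId3f/f KCs, a difference of −2.8. 8 of the 9 members passed a filter of 10 counts in 2 samples, Jag1 being at −0.39 to −0.38 in all 5. None of the 8 was called by limma, beside 6.44% of 12833 genes (3.08% higher and 3.37% lower). At an unadjusted p under 0.05 there was 1, Wnt9b, beside 23.6% of genes. Differences were positive for 5 and negative for 3, with a median of 0.023 beside 0.0014 for all genes. The groups did not overlap for 2 members, both higher after deletion, where 41.9% of all genes did not overlap (20.2% higher and 21.7% lower). The genotypes also differed in sex-linked genes. Xist was at 6.33 to 6.38 and 9.76 to 9.84, and the Y-linked Ddx3y differed by −2.44, so that genotype and the sex of the mice cannot be told apart.

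Wnt2 was at 8.41, 8.47 and 9.01 in Id3f/f and 8.66 and 8.65 in Clec4fCreId3f/f KCs, a difference of 0.02 (95% interval −0.34 to 0.39, adjusted p = 0.954). Wnt9b was at 3.92, 3.86 and 3.86 and at 3.94 and 3.95, a difference of 0.07 (SE 0.03, adjusted p = 0.195), the smallest adjusted p of the 8. Rspo3 was at 6.26, 6.24 and 6.22 and at 6.31 and 6.43 (difference 0.13, SE 0.07, adjusted p = 0.30). Both lay above the controls in each deleted sample.

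Bmp2 was at 9.03, 8.85 and 9.08 and at 8.70 and 9.17 (difference −0.05, 95% interval −0.37 to 0.27), with the deleted samples on either side of the controls. Dll4 (5.44, 5.53 and 5.49 against 5.52 and 5.49) and Kitl (6.92, 6.82 and 6.74 against 6.89 and 6.76) differed by 0.02 and −0.0017, with intervals of −0.09 to 0.14 and −0.19 to 0.19. Hgf differed by 0.03 (−0.21 to 0.27) and Bmp6 by −0.02 (−0.14 to 0.10). The intervals of all 8 tested members lay between −0.37 and 0.39, on a scale that understates the changes of genes with few reads.

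**Figure D4:**
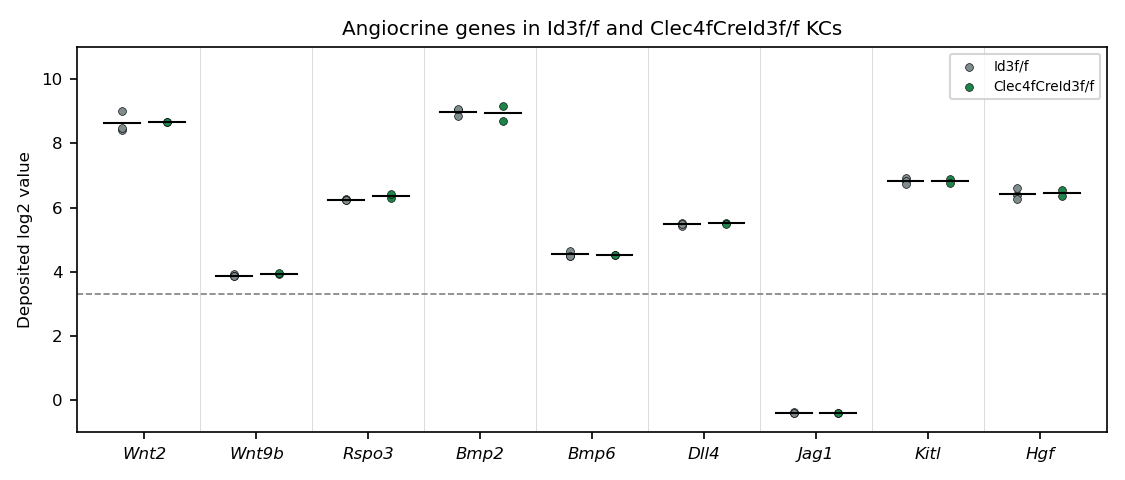
Deposited log2 values of the 9 angiocrine genes per sample in Id3f/f (n = 3) and Clec4fCreId3f/f (n = 2) KCs. Points are samples, bars are means, and the dashed line is the log2 value of 10 counts. The genotypes overlap for all members but Wnt9b and Rspo3, whose means differ by 0.07 and 0.13.

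The endothelial list had a median difference of −0.11 between the genotypes. Clec4g (−0.80) and Dnase1l3 (−0.42) fell and Pecam1 (0.58), an adhesion molecule also made by leukocytes, rose. Of the 15 Kupffer cell markers, 4 rose and 5 fell (12 at an unadjusted p under 0.05 by limma), with a list median of 0.0057. Among them, Clec4f was at 17.59, 17.62 and 17.71 in Id3f/f and 16.13 and 16.11 in Clec4fCreId3f/f KCs. Only the latter mice carry the Cre driven by Clec4f, so for this gene the driver and the Id3 deletion cannot be told apart. Of the pathway genes, 2 of 18 BMP genes were called. They were Id3 itself, which is lower by design, and Id1 (−0.72), both targets of BMP signalling. Of 18 Notch genes, 13 differences were positive, with a list median of 0.015. The protease gene Mmp9 fell (−0.49) among 10 HGF and KIT genes, and 0 of 17 Wnt genes were called by limma (2 at an unadjusted p under 0.05). Among 17 further secreted factors, Igfbp7 (−0.91) and Igf1 (−0.36) fell and 0 rose. Over all genes tested between the genotypes, 3.08% were called higher and 3.37% lower, and 23.6% had an unadjusted limma p under 0.05.

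**Figure D5:**
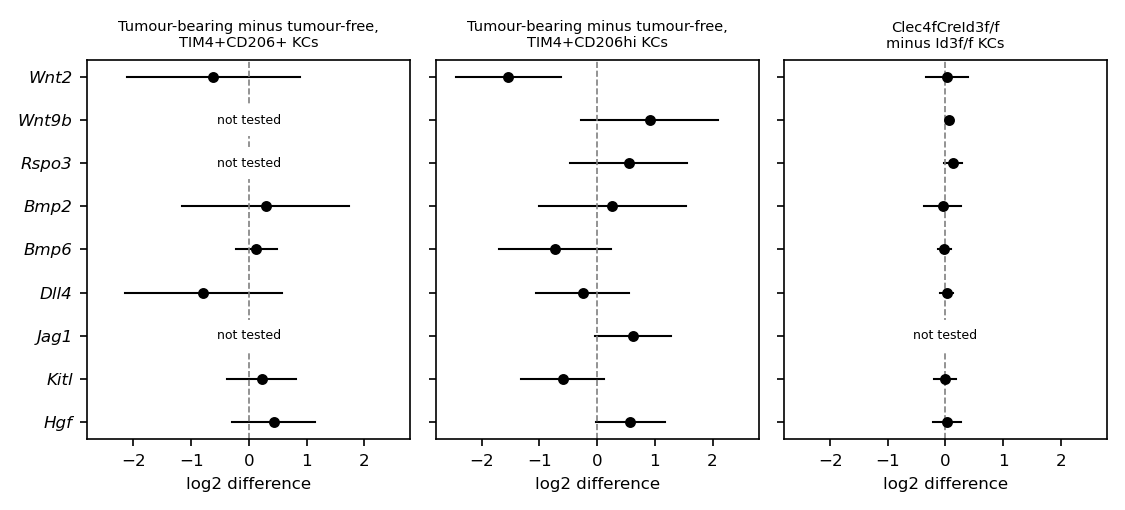
Difference in deposited log2 value of each tested angiocrine gene for tumour-bearing minus tumour-free TIM4+CD206+ KCs (left) and TIM4+CD206hi KCs (middle), and for Clec4fCreId3f/f minus Id3f/f KCs (right). Points are limma estimates and lines are 95% intervals. Of the 23 intervals, those of Wnt2 in TIM4+CD206hi KCs (−2.45 to −0.63) and of Wnt9b in the Id3 comparison (0.00 to 0.13) do not include 0.

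Finally, genes whose pattern most resembled that of each ligand were listed over the 17 samples, with values centred within each table. These correlations, searched among 12222 genes for each ligand, are descriptions, since samples of a table share normalization and cell composition. Dll4 was most like the endothelial genes Eng (r = 0.93), Flt4 (0.92) and Tie1 (0.91), and 8 genes of the endothelial list were among its 50 nearest. Bmp2 was most like Gata4 (0.91), a transcription factor of sinusoidal endothelium, followed by Hmgn3 and Fam174b. Wnt2 was most like the natriuretic peptide receptor gene Npr1 (0.92), Ces2e (0.91) and Plscr3 (0.91). Kitl was nearest to Ccdc17, Eif4e2 and Gpbp1l1 (0.92 each), Hgf to Camk2g, Car5b and Azin1 (0.86 to 0.87), and Bmp6 to Cdkn1c, Sntb2 and Ypel1 (0.82 to 0.86), with 0 endothelial list genes among the 50 nearest to these 3. That count was 1 for Wnt2 and 2 for Bmp2, and Gata4 is itself a gene of the list. Between the ligands themselves, Wnt2 correlated with Dll4 at r = 0.64 and with Bmp2 at −0.003. All these are Pearson correlations. Spearman correlations of each ligand with its nearest genes ran from 0.53 (Bmp2 with Hmgn3) to 0.94 (Kitl with Ccdc17). That of Bmp6 with Cdkn1c was 0.62.

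Mrc1, the gene of CD206, was looked up after its values were seen as a check of the sort. It ranked at 93.6 to 96.2 in TIM4+CD206+ and 99.4 to 99.8 in TIM4+CD206hi samples. Sinusoidal endothelial cells also carry CD206.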

How the data were processed

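RNA from sorted mouse KCs was amplified with SMART-Seq v4, sequenced as unstranded pairs without molecular identifiers, aligned with STAR 2.7.10a and counted with HTSeq, per the labels and the study's methods. The submitters' notes name mm10, the build of GRCm38. The authors deposited 1 table per comparison, named as counts with columns named TPM. The labels name DESeq2 among the authors' tools, and the values the authors deposited behave as its regularized log2 transform of counts, made separately per table. Read depth is therefore not given by these files, and genes with few reads show compressed differences. A count test was therefore not used.

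Genes were matched by symbol. Groups were compared within a table with limma 3.58.1 (R 4.3.3, mean-variance trend, Benjamini-Hochberg adjustment) on genes with a value of at least log2 of 10 counts, which is 3.32, in 3 samples, or 2 for Id3. The test was tried on simulated data with changes of 2 log2 units or more. These are larger than any difference of a ligand here, so the trial does not speak to changes of that size. Percentiles, exon lengths (GRCm38, known for 24497 genes) and figures were made with Python 3.11.15, pandas 2.3.3 and matplotlib 3.10.9. Samples with the same replicate number deviated together in TIM4+CD206+ KCs, with r of 0.35, 0.56 and 0.15 across genes, and a fit with the number as a block is given beside the main fit, which has none. Replicates are separate samples by their labels. The study gives the Id3 samples as 2 Clec4fCreId3f/f mice and 3 Id3f/f littermates. Where nothing says that replicates came from separate mice, p-values measure the spread between these samples only. The alternatives were median centring, quantile normalization, no filter, a filter of a mean of 50 counts, no trend, the block, each sample left out, and ranks per kilobase.

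The 9 genes, the gene lists and the rule for naming were chosen with earlier results of these data known. Named are all 9 genes, the called genes of the pathway lists but for 1 that is not reported here, the most abundant genes of marker lists and the 3 genes most like each ligand that passed the filter in every table. Oit3, Dnase1l3, Tspan7, Mmrn2, Tek, Lrat, Colec11, Hhip, Hnf4a and Mrc1 were named after their values were seen.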

Additional observations from a re-analysis of the deposited data

How the results depend on the processing

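For the ligands, 66 of 69 values in TIM4+CD206+ KCs, 99 of 108 in TIM4+CD206hi KCs and 72 of 85 in the Id3 comparison kept their direction and their side of the threshold over the alternatives. No member was called in TIM4+CD206+ KCs or after Id3 deletion under any of them. In TIM4+CD206hi KCs 1 member, Wnt2, was called after median centring and 1 after quantile normalization, and 0 to 2 with a sample left out. In TIM4+CD206+ KCs, leaving out a sample moved Wnt2 to between −1.29 and 0.22, Bmp6 to between −0.0017 and 0.23, Bmp2 to between −0.49 and 0.85, Dll4 to between −1.50 and −0.33, Kitl to between 0.055 and 0.42 and Hgf to between 0.17 and 0.64. In TIM4+CD206hi KCs it moved Bmp2 to between −0.097 and 0.94 (−0.042 without tumour-free replicate 1), Dll4 to between −0.65 and 0.015, Wnt9b to between 0.35 and 1.43, Jag1 to between 0.36 and 0.78 and Hgf to between 0.30 and 0.74. After Id3 deletion, the differences near 0 changed sign: Wnt2 was −0.0047 after median centring, −0.00091 after quantile normalization and −0.086 to 0.21 with a sample left out (−0.057 without Id3f/f replicate 2), Dll4 was −0.0052 and Hgf −0.00097 after median centring, and with a sample left out Hgf was −0.073 to 0.13 (−0.054 without Id3f/f replicate 3), Kitl −0.066 to 0.062 (0.047 without Id3f/f replicate 1), Bmp6 −0.053 to 0.038 and Bmp2 −0.29 to 0.19.

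The number of all genes called was 228 to 1018 in TIM4+CD206+ KCs, 579 to 3653 in TIM4+CD206hi KCs (3653 without tumour-free replicate 2) and 17 to 1850 in the Id3 comparison (17 and 19 without either Clec4fCreId3f/f sample, where the lone sample is assumed to vary like the other group) with a sample left out. It was 600 with the stricter filter in TIM4+CD206hi KCs and 477 with no filter in the Id3 comparison. Median centring moved the share of higher genes among calls from 47.8% to 37.4% there. The causes were not tested. Ranked per kilobase, the median difference of the ligands between subsets with tumour was 30.7 percentile points, and 25.1 to 30.1 with a sample left out. With the replicate number as a block, 1026 genes were called in TIM4+CD206+ KCs, 909 in TIM4+CD206hi KCs and 2089 in the Id3 comparison, where Hgf was −0.054. The numbers did not pair the samples in the last 2 (r of −0.13 to −0.048 and −0.10 and −0.073). The block called no member in any comparison. Read depth is not given by these files, which limits what can be said of Wnt9b and Jag1, at the bottom of the tables.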
